A study of Mus musculus with 30 samples.

Results

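The heat shock proteins and J-domain proteins are the protein-folding chaperones whose gene symbols begin with Hsp or Dnaj. All rows of the deposited RNA table with such a symbol were taken, without the heparan sulfate proteoglycan gene Hspg2 and without rows marked as pseudogenes, which gave 75 of 53974 genes. They were followed in cultured neural stem and progenitor cells (NSPCs) from the forebrain of C57BL/6 mouse embryos at E13.5, grown with EGF and FGF at early passage. The cells received 10 mM crotonate, a short-chain fatty acid that feeds histone crotonylation, or 1 µM MS-275 (entinostat), which blocks class I histone deacetylases, or the solvent DMSO (control), each for 24 h and in 4 libraries that the series calls biological replicates. The labels do not say whether the crotonate cultures received DMSO too. The same genes were read in 1 RNA library of untreated C57BL/6 E13.5 forebrain and in the authors' comparison of E13.5 forebrain explants of the ICR strain, with 3 crotonate and 3 control libraries, for which the labels give neither dose nor time. Peaks near the genes came from chromatin immunoprecipitation (ChIP) of lysine crotonylation (Kcr) and lysine acetylation (Kac) on histones of NSPCs, 1 library per mark and treatment. In forebrain the marks were H3K9cr and H3K9ac, the crotonyl and acetyl forms of lysine 9 on histone H3, again in 1 library per mark. No genotype other than the strain is given for any group.

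Chaperones of the HSP70 family bind short hydrophobic stretches of unfolded proteins in a cycle driven by ATP. J-domain proteins deliver the substrates and start ATP hydrolysis, and nucleotide-exchange factors such as the HSP110 proteins release them again. HSP90 acts on clients that are nearly folded, the chaperonin of HSP60 and HSP10 encloses proteins in the mitochondrial matrix, and the small heat shock proteins hold unfolded proteins without ATP. Heat shock factor 1 switches on the inducible members through heat shock elements, repeats of the unit GAA and its reverse complement TTC, whereas the chaperones of the endoplasmic reticulum (ER) answer to the unfolded protein response.

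RNA levels are given as TPM, a gene's share of all transcripts of a library after correction for transcript length, scaled to the same total in each library. Levels of different genes can be compared on this scale, but the number of reads behind each value is unknown. The 13 libraries held 13444 to 14980 genes at 1 TPM or more, and the lowest correlation between replicates of a group was 0.981. The 12 NSPC marker genes all reached 1 TPM in each treatment group and summed to 9234 to 10112 TPM in crotonate, 13817 to 14454 TPM in MS-275 and 9842 to 10371 TPM in control libraries. Summed levels of 6 oligodendrocyte-lineage genes were 1848 to 2099 TPM in crotonate, 2843 to 3123 TPM in MS-275 and 1686 to 1885 TPM in control libraries, and those of 4 astrocyte genes 79.6 to 88.1, 94.3 to 120 and 47.5 to 58.6 TPM. The 10 neuronal genes summed to 292 to 322 TPM in crotonate, 392 to 407 TPM in MS-275 and 320 to 341 TPM in control libraries, mostly from Map2 (303 TPM in controls). Without Map2, which was lower with crotonate (-0.31), they summed to 58.6 to 64.2 TPM in crotonate, 71.4 to 84.1 TPM in MS-275 and 24.9 to 28.6 TPM in control libraries. Of the 8 tested neuronal genes, 6 were higher with crotonate, among them Snap25 (2.31), Syt1 (1.19), Rbfox3 (0.80) and Dcx (0.69 on the log2 scale), and 5 were higher with MS-275. The oligodendrocyte-lineage sums overlapped between crotonate and control libraries, whereas the astrocyte sums and the neuronal sums without Map2 of all treated libraries and the NSPC sums of the MS-275 libraries lay above the controls. So did the low sums of 5 endothelial genes (2.61 to 3.19 TPM in crotonate, 4.35 to 5.65 TPM in MS-275 and 0.940 to 1.32 TPM in control libraries, with Kdr called higher) and of 4 choroid plexus genes (1.74 to 3.09, 1.45 to 2.41 and 0.137 to 0.429 TPM, with Clic6 called higher). The 5 mural and mesenchymal genes summed to 4.88 to 8.57 TPM in crotonate, 6.53 to 17.8 TPM in MS-275 and 1.28 to 7.81 TPM in control libraries. All 5 microglial and all 5 erythroid genes stayed under 1 TPM in each NSPC group. The part of these marker shifts in the chaperone results was not tested. In bulk RNA, fewer cells of a type and less RNA per cell cannot be told apart.

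In control NSPCs the chaperones were dominated by a few abundant members. Hspa8, the constitutive cytosolic HSP70, averaged 1888 ± 17.3 TPM and Hsp90ab1, the constitutive cytosolic HSP90, 1628 ± 17.9 TPM (SD, n = 4). Together with Hspd1 (HSP60), Hsp90aa1 (the inducible cytosolic HSP90) and Hsp90b1 (the HSP90 of the ER) they held 58.3% of the summed TPM of all 75 members, and 9 members held 74.9%. At the other end, 14 members had a mean under 1 TPM in controls, and Dnajc5g was listed at 0 in all 13 libraries. The sum over all members was 8257 ± 168 TPM in crotonate, 7870 ± 115 TPM in MS-275 and 9026 ± 148 TPM in control libraries (SD, n = 4 each), with every treated library below every control.

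Differences between the NSPC groups were tested with limma on log2(TPM + 1) over the 14857 genes that reached 1 TPM in at least 4 of the 12 libraries, with Benjamini-Hochberg adjustment over all of them and a threshold of 0.05. Fold changes on this scale understate those of low genes. Of the 75 members 66 were tested, and 9 stayed below the limit, among them Dnajb7, Dnajb8, Dnajb13, Dnajc5b, Dnajc5g, Hspb3, Hspb7 and Hspb9. Hspb1, Dnajc6 and Hspa12b lay under 1 TPM in all 4 control libraries, so they passed the limit through the treated libraries. Only some controls reached 1 TPM for Dnajc22 (2.69, 0, 0.0588 and 0.125 TPM) and Hspb2 (1.41, 0, 0.165 and 1.92 TPM). These 2 genes also passed the limit through treated libraries, Hspb2 through those of MS-275. With crotonate 14 members were higher (21.2%, against 32.3% of all genes tested) and 19 were lower (28.8%, against 15.9%). With MS-275 21 were higher (31.8%, against 37.4%) and 26 were lower (39.4%, against 27.6%). The median log2 change of the 66 members was -0.02 with crotonate and -0.06 with MS-275, beside 0.09 and 0.08 for all genes tested.

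With crotonate few of these changes were large. Past 2-fold were 3 of the 14 higher and 0 of the 19 lower members with crotonate (6.15% and 0.114% of all genes tested). With MS-275 these were 10 of the 21 higher and 1 of the 26 lower members (10.9% and 2.53% of all genes tested). All 4 treated libraries lay above all 4 controls for 11 members with crotonate (29.5% of all genes) and below them for 14 (14.7%); with MS-275 these were 17 (33.6%) and 25 (24.9%). The 2 treatments were compared with the same control libraries. The values of each comparison are therefore given side by side. The split between directions depends on the scaling. Median-of-ratios scaling gave 10 higher and 31 lower with crotonate (24.5% and 26.9% of all genes) and 19 and 30 with MS-275 (33.1% and 32.6%), and quantile normalization gave 8 and 21 (20.8% and 24.8%) and 14 and 28 (29.6% and 34.1%). These scalings moved the median of all genes with crotonate by -0.10 and -0.13. In the plot of all 66 members the large increases belong to small heat shock, HSP70 and J-domain genes, and the decreases are many and mostly small.

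**Figure D1:**
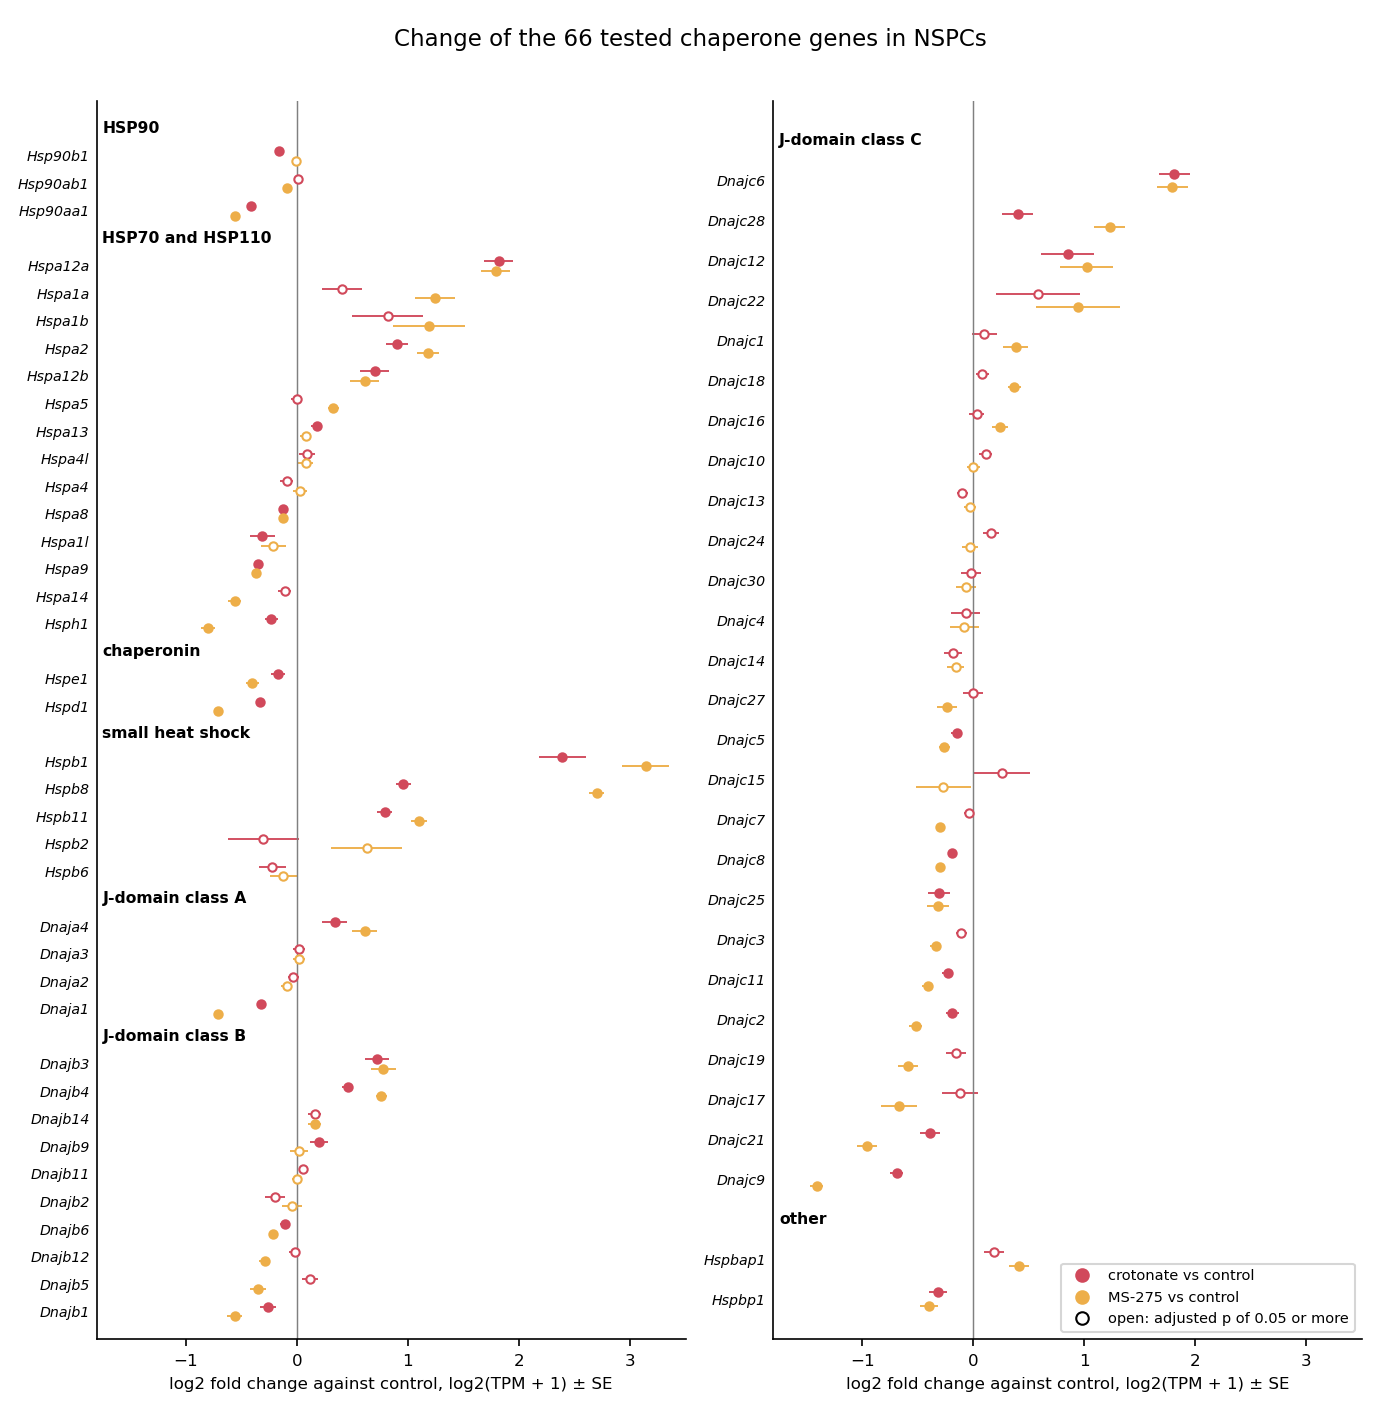
Log2 fold change on the log2(TPM + 1) scale with its standard error (limma, n = 4 libraries per group) of the 66 tested members in NSPCs, crotonate against control in red and MS-275 against control in yellow, grouped by role and sorted by the MS-275 value. Filled points passed an adjusted p of 0.05; Hspb1 and Hspb8 reach furthest to the right and Dnajc9 furthest to the left.

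Among the 5 tested small heat shock genes, 3 were higher with both treatments and none passed as lower, beside the shares of all genes just given. Hspb1, which encodes the stress-inducible actin-binding chaperone HSP25 (human HSP27), was at 9.46, 6.60, 8.61 and 5.23 TPM in crotonate, at 15.6, 10.1, 17.2 and 10.4 TPM in MS-275 and at 0.722, 0.559, 0.250 and 0.873 TPM in control libraries. No treated library overlapped the controls, and every MS-275 library lay above every crotonate library. The log2 change was 2.39 ± 0.21 with crotonate (SE, limma adjusted p = 1.9e-06) and 3.14 ± 0.21 with MS-275 (adjusted p = 4.8e-08). As a ratio of mean TPM this was 12.4 and 22.2. Hspb1 entered the test only through its treated libraries, and these ratios rest on control values under 1 TPM. Hspb8, which works with the cochaperone Bag3 in the autophagy of misfolded proteins, was at 23.6, 22.8, 24.0 and 21.9 TPM in crotonate, at 85.9, 75.3, 77.9 and 77.3 TPM in MS-275 and at 12.9, 10.4, 11.3 and 10.9 TPM in control libraries. The 3 groups were fully separated, with log2 changes of 0.96 ± 0.07 with crotonate (adjusted p = 2.7e-07) and 2.70 ± 0.07 with MS-275 (adjusted p = 1.4e-10). Hspb11 was at 55.5, 57.7, 59.0 and 59.4 TPM in crotonate, at 79.7, 67.6, 72.5 and 68.1 TPM in MS-275 and at 30.3, 31.2, 33.4 and 37.6 TPM in control libraries. It too had no overlap between the groups (log2 change 0.79 ± 0.07 and 1.10 ± 0.07, adjusted p = 2.0e-06 and 3.2e-08), although its product is known as the intraflagellar transport protein IFT25 of cilia and not as a classical chaperone. Hspb6 averaged 14.2 ± 2.49 TPM in crotonate, 15.2 ± 1.74 TPM in MS-275 and 16.6 ± 1.86 TPM in control libraries and did not pass in either comparison. With crotonate it passed as lower after median-of-ratios scaling (-0.33, adjusted p = 0.0368), after quantile normalization (-0.38, adjusted p = 0.0252), with replicate numbers as blocks (adjusted p = 0.0412) and without crotonate library 1 (adjusted p = 0.0390). Hspb2 averaged 0.379 ± 0.164 TPM in crotonate and 1.68 ± 0.643 TPM in MS-275 libraries, spread from 0 to 1.92 TPM among the controls, and passed against them with neither treatment (adjusted p = 0.462 with crotonate and 0.0976 with MS-275; the MS-275 value was 0.0190 without control library 4).

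The promoters of the most changed small heat shock genes are shown because both hold a heat shock element of 8 bases. They come from RefSeq (GRCm38.p6) and run from 250 bases before to 50 bases after the gene start, with the motif GAANNTTC or TTCNNGAA in capitals. The Hspb1 window is chr5:135887669-135887968, plus strand, and the Hspb8 window is chr5:116422815-116423114, minus strand.
Hspb1: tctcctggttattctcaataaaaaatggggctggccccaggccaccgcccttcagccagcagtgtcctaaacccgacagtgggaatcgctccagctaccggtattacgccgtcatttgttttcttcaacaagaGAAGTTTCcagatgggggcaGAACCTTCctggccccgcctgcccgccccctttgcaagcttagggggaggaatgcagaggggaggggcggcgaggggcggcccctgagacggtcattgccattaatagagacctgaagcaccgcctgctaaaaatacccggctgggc
Hspb8: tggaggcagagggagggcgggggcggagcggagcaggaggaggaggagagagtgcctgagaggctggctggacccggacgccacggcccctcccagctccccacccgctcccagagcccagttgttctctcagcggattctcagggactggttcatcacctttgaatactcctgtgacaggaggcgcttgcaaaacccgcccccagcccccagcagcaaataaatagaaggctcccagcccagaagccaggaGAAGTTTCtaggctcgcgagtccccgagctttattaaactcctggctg
Hspb1 holds the motif at -117 and -97 from the start, and Hspb8 holds it once, at 2 from the start. Both motifs are palindromes, so 1 search reads both strands. The motif GAANNTTC is also held by Hspb6 (at -120), which passed with neither treatment, by the untested Hspb3 and by 9.04% of 27025 genes. A match describes the letters of the window only. The plot of levels by library sets these genes beside members of the other roles.

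**Figure D2:**
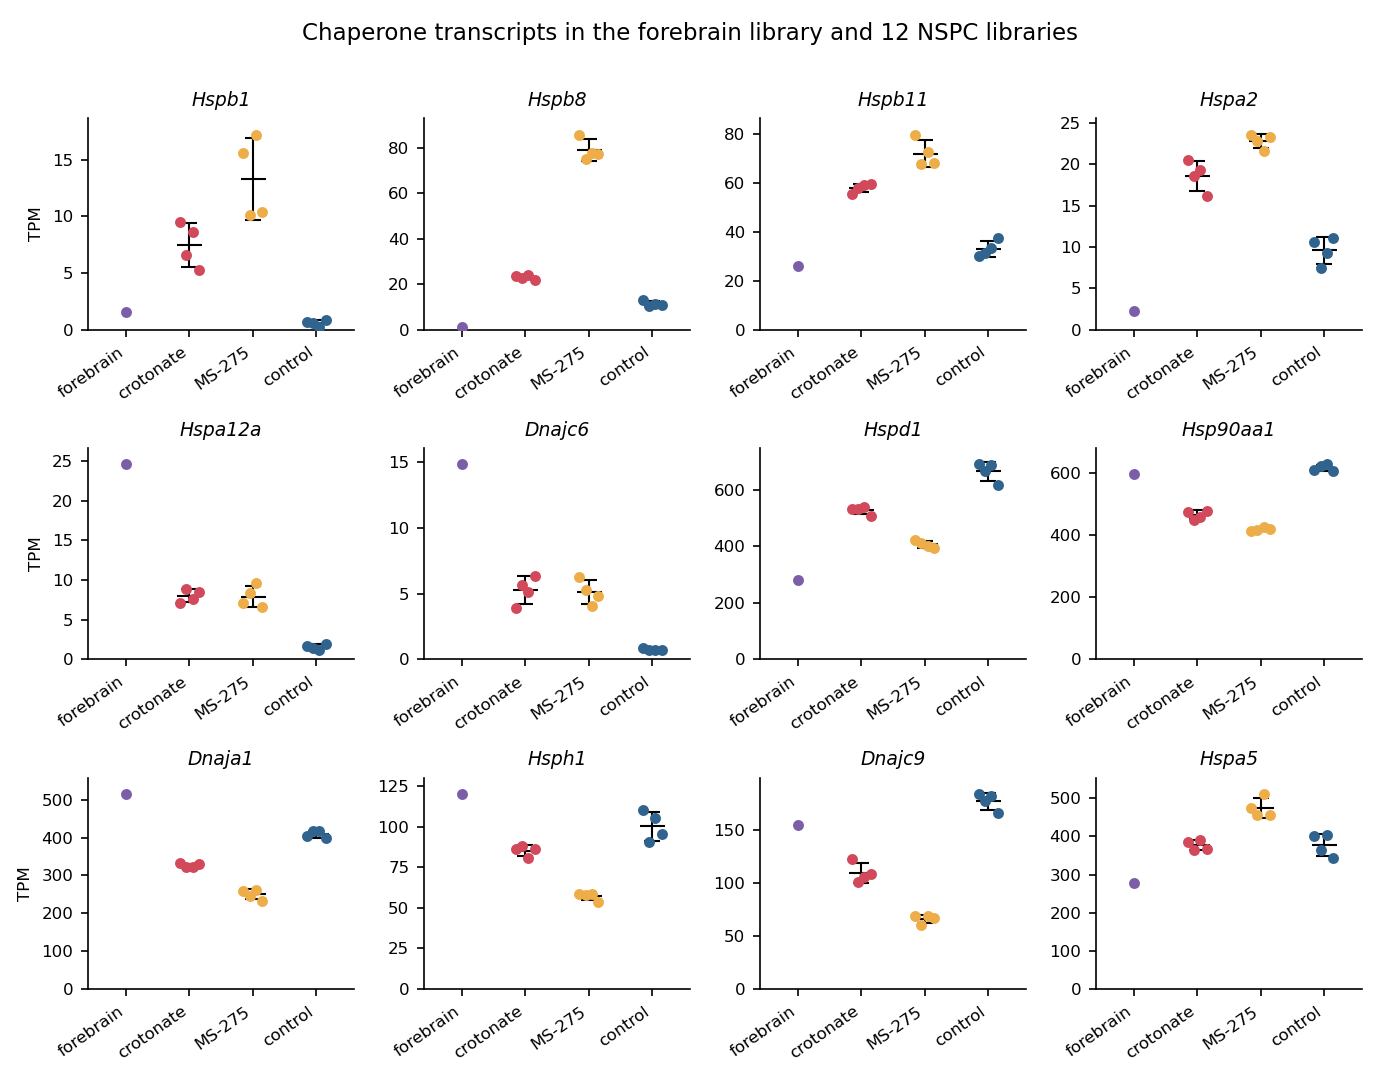
TPM of 12 members in the 1 forebrain library and in the 4 crotonate, 4 MS-275 and 4 control NSPC libraries; points are libraries and bars the mean ± SD, and each panel has its own axis from 0. Hspb1, Hspb8, Hspb11, Hspa2, Hspa12a and Dnajc6 lie above the controls in all 8 treated libraries, and Hspd1, Hsp90aa1, Dnaja1, Hsph1 and Dnajc9 lie below them.

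In the HSP70 and HSP110 family of 14 tested genes, 4 were higher and 4 lower with crotonate (32.3% and 15.9% of all genes tested), and 6 were higher and 4 lower with MS-275 (37.4% and 27.6% of all genes tested). The 4 that were higher with crotonate were among the less abundant ones. Hspa12a, a distant HSP70 relative, was at 7.12, 8.85, 7.68 and 8.49 TPM in crotonate, at 7.10, 8.36, 9.61 and 6.57 TPM in MS-275 and at 1.69, 1.47, 1.18 and 1.95 TPM in control libraries. No treated library overlapped the controls, and the log2 change was 1.82 ± 0.13 with crotonate and 1.79 ± 0.13 with MS-275 (limma adjusted p = 3.1e-07 and 9.3e-08). Its paralog Hspa12b averaged 1.41 ± 0.255 TPM in crotonate, 1.27 ± 0.186 TPM in MS-275 and 0.481 ± 0.133 TPM in control libraries (log2 change 0.70 and 0.61, adjusted p = 8.8e-04 and 0.00126), but these calls ended under quantile normalization (adjusted p = 0.143 and 0.562). Hspa12b too entered the test only through its treated libraries. Hspa2, known for its role in male germ cells, was at 20.5, 18.6, 19.3 and 16.2 TPM in crotonate, at 23.6, 22.8, 21.6 and 23.3 TPM in MS-275 and at 10.6, 7.47, 9.25 and 11.1 TPM in control libraries. All treated libraries lay above all controls, by 0.90 ± 0.10 with crotonate (adjusted p = 2.1e-05) and 1.18 ± 0.10 with MS-275 (adjusted p = 6.9e-07).

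The classical heat-inducible HSP70 genes stayed low in NSPCs. Hspa1a was at 3.52, 2.44, 2.23 and 1.92 TPM in crotonate, at 6.06, 4.86, 5.30 and 4.70 TPM in MS-275 and at 1.92, 1.39, 0.971 and 2.45 TPM in control libraries. Hspa1b was at 10.3, 4.12, 4.64 and 4.2 TPM in crotonate, at 11.3, 5.67, 5.91 and 7.27 TPM in MS-275 and at 4.47, 1.63, 1.47 and 3.90 TPM in control libraries. Both were higher with MS-275, by 1.24 ± 0.18 and 1.19 ± 0.32 on the log2 scale (limma adjusted p = 5.2e-05 and 0.00591), and the MS-275 libraries lay above all controls. The Hspa1b call ended under quantile normalization (adjusted p = 0.0544). With crotonate neither passed, at 0.41 ± 0.18 (adjusted p = 0.0781) and 0.82 ± 0.32 (adjusted p = 0.0525). These crotonate values sat near the threshold: Hspa1a passed without control library 4 (adjusted p = 0.0238), and Hspa1b passed without control library 1 (0.0257), control library 4 (0.0394) or MS-275 library 1 (0.0455), and with replicate numbers as blocks (0.00247). The 2 genes are near-identical copies on chromosome 17, so the split of reads between them is uncertain.

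Several of the more abundant HSP70 and HSP110 members were lower. Hspa9, the mitochondrial HSP70, was at 283, 265, 278 and 272 TPM in crotonate, at 283, 263, 270 and 269 TPM in MS-275 and at 358, 341, 362 and 344 TPM in control libraries, with no overlap (log2 change -0.35 ± 0.03 and -0.37 ± 0.03, limma adjusted p = 4.0e-06 and 8.1e-07). Hsph1, the HSP110 that exchanges nucleotides on HSP70, was at 86.0, 88.1, 80.8 and 86.1 TPM in crotonate, at 58.3, 58.1, 58.6 and 53.5 TPM in MS-275 and at 110, 90.6, 105 and 95.3 TPM in control libraries. Every treated library was below every control, by -0.23 ± 0.06 with crotonate (adjusted p = 0.00683) and -0.80 ± 0.06 with MS-275 (adjusted p = 1.4e-07). Hspa8 averaged 1740 ± 61.9 TPM in crotonate, 1733 ± 26.8 TPM in MS-275 and 1888 ± 17.3 TPM in control libraries, a small change of -0.12 ± 0.03 with each treatment (adjusted p = 0.00380 and 0.00166). With crotonate that call ended under quantile normalization (adjusted p = 0.0553). Hspa14, a ribosome-associated HSP70, was lower with MS-275, at 55.3 ± 2.44 TPM against 81.9 ± 5.24 TPM in controls (adjusted p = 1.9e-06), and averaged 75.9 ± 4.53 TPM with crotonate, which did not pass (adjusted p = 0.126), although it did without crotonate library 2 (0.0407) and after median-of-ratios scaling (-0.22, 0.00845).

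Hspa5, which encodes the ER chaperone BiP, was higher with MS-275 than in both other groups. It was at 385, 365, 390 and 367 TPM in crotonate, at 475, 456, 511 and 455 TPM in MS-275 and at 400, 364, 405 and 344 TPM in control libraries. Crotonate and control libraries overlapped (log2 change -0.00 ± 0.05, limma adjusted p = 0.971), whereas all MS-275 libraries lay above all controls (0.33 ± 0.05, adjusted p = 1.8e-04). Its promoter is shown because it holds the ER stress element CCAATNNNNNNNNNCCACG, in capitals, which 3 of 60 members with a RefSeq promoter record hold (5.0%; Hspa5, Hsp90b1 and Dnajc3) and 0.137% of 27025 genes, searched on both strands. The window is chr2:34771840-34772139, plus strand.
Hspa5: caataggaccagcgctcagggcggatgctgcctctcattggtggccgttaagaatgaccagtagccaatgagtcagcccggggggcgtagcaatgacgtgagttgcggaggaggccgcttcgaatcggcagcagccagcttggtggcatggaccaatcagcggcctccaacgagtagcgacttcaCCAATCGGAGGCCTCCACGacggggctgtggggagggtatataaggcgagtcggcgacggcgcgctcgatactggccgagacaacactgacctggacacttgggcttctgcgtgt
The element begins at -65 from the start. Hsp90b1 averaged 416 ± 16.3 TPM in crotonate, 462 ± 12.5 TPM in MS-275 and 466 TPM in control libraries (449 to 480); it was lower with crotonate (-0.16 ± 0.03, adjusted p = 0.00194, but 0.104 under quantile normalization) and did not pass with MS-275 (adjusted p = 0.756). Dnajc3, the ER protein p58IPK, averaged 27.0 ± 1.13 TPM in crotonate, 22.8 ± 0.910 TPM in MS-275 and 29.2 ± 1.46 TPM in control libraries. It was lower with MS-275 (-0.34 ± 0.05, adjusted p = 7.1e-05) and did not pass with crotonate (-0.11 ± 0.05, adjusted p = 0.101), although it did with replicate numbers as blocks (0.0433) and after median-of-ratios scaling (-0.22, 0.00404). The 3 genes that hold the element thus gave 3 different sets of calls.

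The cytosolic HSP90 genes gave different calls. Hsp90aa1 was at 476, 449, 458 and 479 TPM in crotonate, at 415, 417, 425 and 421 TPM in MS-275 and at 611, 622, 628 and 607 TPM in control libraries, fully separated and lower by -0.41 ± 0.03 with crotonate (limma adjusted p = 2.4e-07) and -0.56 ± 0.03 with MS-275 (adjusted p = 4.0e-09). Hsp90ab1 averaged 1637 ± 24.0 TPM in crotonate, 1526 ± 33.3 TPM in MS-275 and 1628 ± 17.9 TPM in control libraries. It did not pass with crotonate (0.01 ± 0.02, adjusted p = 0.813, but -0.11 and 0.00141 after median-of-ratios scaling) and was lower with MS-275 (-0.09 ± 0.02, adjusted p = 0.00400). Both subunits of the mitochondrial chaperonin were lower with both treatments. Hspd1 was at 533, 532, 541 and 507 TPM in crotonate, at 423, 411, 402 and 393 TPM in MS-275 and at 691, 668, 690 and 619 TPM in control libraries, with no overlap (log2 change -0.33 ± 0.04 and -0.71 ± 0.04, adjusted p = 2.2e-05 and 1.1e-08). Hspe1, HSP10, averaged 314 ± 21.6 TPM in crotonate, 269 ± 9.12 TPM in MS-275 and 354 ± 23.7 TPM in control libraries. Its change was -0.40 ± 0.06 with MS-275 (adjusted p = 4.0e-05) and -0.17 ± 0.06 with crotonate (adjusted p = 0.020). The crotonate call ended under quantile normalization (adjusted p = 0.118) and without control library 1 or 3 or crotonate library 2, 3 or 4 (adjusted p = 0.0511 to 0.0607).

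Of the 40 tested J-domain genes, 7 were higher and 10 lower with crotonate (32.3% and 15.9% of all genes tested), and 11 were higher and 17 lower with MS-275 (37.4% and 27.6%). Dnajc22, 1 of the 11 (limma adjusted p = 0.0430, but 0.0504 after median-of-ratios scaling), entered the test through its treated libraries. Dnajc6 encodes auxilin, which recruits HSP70 to strip clathrin from synaptic vesicles. It was at 3.87, 5.67, 5.14 and 6.33 TPM in crotonate, at 6.29, 5.30, 4.08 and 4.83 TPM in MS-275 and at 0.897, 0.750, 0.722 and 0.676 TPM in control libraries, without overlap with the controls. The log2 changes were 1.81 ± 0.14 with crotonate and 1.79 ± 0.14 with MS-275 (limma adjusted p = 8.3e-07 and 2.5e-07), or 6.90 and 6.73 as ratios of mean TPM. Dnajc6 entered the test only through its treated libraries, and its ratios rest on control values under 1 TPM. Dnajb4, a cytosolic class B protein, averaged 32.9 ± 1.68 TPM in crotonate, 40.4 ± 1.37 TPM in MS-275 and 23.5 ± 0.711 TPM in control libraries, with all 3 groups separated (0.46 ± 0.05 and 0.76 ± 0.05, adjusted p = 7.1e-06 and 3.2e-08). Dnajc12, a cochaperone of aromatic amino acid hydroxylases, averaged 8.80 ± 2.3 TPM in crotonate, 10.2 ± 3.43 TPM in MS-275 and 4.37 ± 1.11 TPM in control libraries (0.85 ± 0.24 and 1.02 ± 0.24, adjusted p = 0.0107 and 0.00228; 0.137 with crotonate under quantile normalization). Dnajc28 averaged 3.17 ± 0.621 TPM in crotonate, 6.40 ± 0.573 TPM in MS-275 and 2.18 ± 0.607 TPM in control libraries. Its increase with MS-275 was 1.23 ± 0.14 (adjusted p = 8.3e-06), and its increase of 0.40 ± 0.14 with crotonate (adjusted p = 0.0386) ended without any 1 of control libraries 1, 2 and 3 and crotonate libraries 1, 2 and 4 (adjusted p = 0.0685 to 0.108) and was -0.05 under quantile normalization.

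With both treatments the largest decrease among the members that passed belonged to Dnajc9, a J-domain chaperone of histones H3 and H4 in chromatin replication. It was at 123, 101, 106 and 109 TPM in crotonate, at 68.6, 60.3, 68.8 and 66.7 TPM in MS-275 and at 184, 177, 182 and 166 TPM in control libraries. The 3 groups did not overlap, and the changes were -0.69 ± 0.06 with crotonate and -1.41 ± 0.06 with MS-275 (limma adjusted p = 3.0e-06 and 2.1e-09). Dnajc21, which acts in ribosome assembly, was at 13.1, 11, 13.6 and 11.6 TPM in crotonate, at 8.96, 6.89, 7.31 and 8.78 TPM in MS-275 and at 17.4, 15.6, 15.6 and 17.1 TPM in control libraries, again fully separated (-0.39 ± 0.09 and -0.96 ± 0.09, adjusted p = 0.00398 and 1.4e-06). Dnaja1, the most abundant J-domain gene and a cytosolic class A partner of Hspa8, was at 332, 322, 323 and 329 TPM in crotonate, at 260, 247, 261 and 233 TPM in MS-275 and at 404, 417, 417 and 398 TPM in control libraries. It was lower by -0.32 ± 0.04 with crotonate and -0.71 ± 0.04 with MS-275 (adjusted p = 1.7e-05 and 6.4e-09). Dnajc8, associated with splicing factors, averaged 118 ± 2.94 TPM in crotonate, 110 ± 3.96 TPM in MS-275 and 136 ± 5.35 TPM in control libraries (adjusted p = 0.00115 and 1.8e-05). Other members passed with MS-275 and not with crotonate. Dnajc7, a tetratricopeptide cochaperone, averaged 153 ± 8.31 TPM in crotonate, 127 ± 4.15 TPM in MS-275 and 157 ± 4.88 TPM in control libraries (-0.30 ± 0.04 with MS-275, adjusted p = 5.1e-05), and did not pass with crotonate (0.478, but 0.0108 after median-of-ratios scaling). Dnajc17 averaged 33.2 ± 4.56, 22.6 ± 5.36 and 36.1 ± 4.87 TPM in crotonate, MS-275 and control libraries and was lower with MS-275 (-0.67 ± 0.16, adjusted p = 0.00291). Dnajc18 averaged 21.0 ± 0.293, 25.8 ± 1.23 and 19.8 ± 1.46 TPM in crotonate, MS-275 and control libraries and was higher with MS-275 (0.37 ± 0.06, adjusted p = 8.4e-05). The ER protein Dnajb11, a BiP partner, averaged 80.4 ± 2.54, 77.1 ± 1.07 and 77.2 ± 2.77 TPM in crotonate, MS-275 and control libraries and passed with neither treatment. The other class A genes Dnaja2, at 139 ± 7.96, 133 ± 5.27 and 142 ± 7.14 TPM in crotonate, MS-275 and control libraries, and Dnaja3, at 42.5 ± 1.80, 42.4 ± 0.374 and 41.8 ± 2.69 TPM, did not pass in either comparison. With MS-275 Dnaja2 passed as lower with replicate numbers as blocks (-0.09, adjusted p = 0.0471), and after median-of-ratios scaling it passed with crotonate (-0.15, 0.0291) and with MS-275 (-0.16, 0.0117).

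Hspbp1, a nucleotide-exchange factor that also inhibits HSP70, was lower with both treatments, at 59.0 ± 3.06 TPM in crotonate, 56.0 ± 2.96 TPM in MS-275 and 74.4 ± 9.01 TPM in control libraries (limma adjusted p = 0.00454 and 6.5e-04). Hspbap1, which encodes a protein that binds HSPB1, was higher with MS-275 (10.0 ± 1.12 against 7.26 ± 0.641 TPM in controls, adjusted p = 0.00121, but 0.286 under quantile normalization). With crotonate it averaged 8.42 ± 0.570 TPM and did not pass (adjusted p = 0.0927).

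Compared directly, MS-275 and crotonate differed in 33 of the 66 members. In MS-275 libraries 12 were higher than in crotonate libraries (18.2%, against 19.3% of all genes tested) and 21 were lower (31.8%, against 27.4%). Of these, 1 was past 2-fold and higher (1.64% of all genes) and none was past 2-fold and lower (0.915%). The MS-275 libraries lay wholly above the crotonate libraries for 12 members (18.3% of all genes) and wholly below them for 19 (25.0%). After median-of-ratios scaling the split was 16 higher and 17 lower (22.3% and 23.7% of all genes), and after quantile normalization 16 and 18 (22.4% and 24.9%). Hspb8 had the largest difference on the log2(TPM + 1) scale, at 79.1 ± 4.69 TPM in MS-275 and 23.1 ± 0.941 TPM in crotonate libraries (log2 difference 1.73 ± 0.07, limma adjusted p = 1.4e-08). As a ratio of mean TPM this was 3.43, against 4.43 for the much lower Hspb2 (1.68 TPM in MS-275 and 0.379 TPM in crotonate libraries, 0.94 ± 0.32, adjusted p = 0.0286). All crotonate values of Hspb2 lay under 1 TPM, and Hspb2 entered the test through its MS-275 libraries. Its limma call ended with a pseudocount of 0.1 (adjusted p = 0.0756), without a filter on low values (0.0585) and under quantile normalization (0.0637). It also ended without crotonate library 2 or 3 or MS-275 library 2 or 4 (0.0555 to 0.0812). Hspb1 (0.75 ± 0.21, adjusted p = 0.00976), Hspa1a (0.83 ± 0.18, adjusted p = 0.00218) and Hspa5 (0.33 ± 0.05, adjusted p = 3.6e-04) were also higher with MS-275. Dnajc9 (-0.72 ± 0.06, adjusted p = 2.4e-06), Hsph1 (-0.57 ± 0.06, adjusted p = 9.3e-06), Dnaja1 (-0.38 ± 0.04, adjusted p = 4.7e-06) and Hspd1 (-0.37 ± 0.04, adjusted p = 9.7e-06) were lower with MS-275. So was Dnajb5, at 44.2 ± 2.75 TPM in MS-275, 61.7 ± 1.99 TPM in crotonate and 56.7 ± 5.86 TPM in control libraries (-0.47 ± 0.07 against crotonate, adjusted p = 1.3e-04). For Hspa12a and Dnajc6 the 2 treatments differed by -0.03 ± 0.13 and -0.03 ± 0.14, which did not pass (adjusted p = 0.876 and 0.899).

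The partners of these chaperones were read from a list of 57 genes for cochaperones, the cytosolic chaperonin CCT, prefoldin, ER folding enzymes and heat shock factors, of which 54 were tested. With crotonate 10 were higher and 19 lower, and with MS-275 13 were higher and 29 lower. For these counts and those of the groups within the list, the shares of all genes tested were 32.3% higher and 15.9% lower with crotonate and 37.4% and 27.6% with MS-275. Median log2 changes were -0.05 and -0.14, beside 0.09 and 0.08 for all genes tested. Of the 8 CCT subunits, which fold actin and tubulin, 1 was higher and 6 lower with crotonate, and 0 were higher and 7 lower with MS-275. Cct3 averaged 269 ± 4.10 TPM in crotonate, 215 ± 4.40 TPM in MS-275 and 327 ± 13.2 TPM in control libraries (limma adjusted p = 2.0e-05 and 8.9e-09). Of the 12 HSP90 cochaperones, 4 were lower and none higher with crotonate, and 9 were lower and 1 higher with MS-275. Of these, Ahsa1, the activator of the HSP90 ATPase, averaged 139 ± 7.17 TPM in crotonate, 97 ± 7.41 TPM in MS-275 and 163 ± 4.86 TPM in control libraries (adjusted p = 0.00418 and 1.3e-07). Of the 9 ER folding genes, 3 were higher and 1 lower with crotonate, and 5 were higher and 0 lower with MS-275. Bag3, the partner of Hspb8, averaged 13.4 ± 2.52 TPM in crotonate, 23.4 ± 2.83 TPM in MS-275 and 8.48 ± 1.61 TPM in control libraries (log2 change 0.61 ± 0.14 and 1.37 ± 0.14, adjusted p = 0.00380 and 2.9e-06). Hsbp1, which binds heat shock factor 1 and dampens it, averaged 213 ± 4.17 TPM in crotonate, 197 ± 5.45 TPM in MS-275 and 150 ± 4.65 TPM in control libraries (adjusted p = 1.5e-07 and 3.5e-07). Hsf1 itself, chosen after its values were seen, averaged 34.8 ± 1.39 TPM in crotonate, 29.1 ± 0.689 TPM in MS-275 and 41.0 ± 2.76 TPM in control libraries (adjusted p = 0.00278 and 3.8e-06).

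Among the members, the forebrain explants had the smallest adjusted p and the largest increases that passed in the heat-inducible HSP70 genes. The authors' deposited table, whose direction of crotonate against control is read from its name, gives 14 members as higher and 5 as lower of the 63 with an adjusted p (22.2% and 7.94%, against 10.5% and 9.75% of 14507 genes). It gives no value per library, so the overlap of libraries cannot be seen. Hspa1b stood first by adjusted p among the 2936 genes called in the authors' deposited table, with a log2 fold change of 1.94 ± 0.05 (SE, adjusted p listed as 0) at a mean of 1875 normalized counts. Hspa1a stood at place 4 in the authors' deposited table, with 1.89 ± 0.05 (adjusted p = 5.4e-299) at 1286 counts. By log2 fold change the 2 genes stood at places 10 and 11 of those called in the authors' deposited table. As folds, computed from the authors' deposited table, these were 3.84 for Hspa1b and 3.71 for Hspa1a. Much smaller increases were listed in the authors' deposited table for Hsph1 (0.29 ± 0.03, adjusted p = 5.1e-22), Hsp90aa1 (0.15 ± 0.02, adjusted p = 1.8e-21) and Hspa8 (0.28 ± 0.03, adjusted p = 1.9e-19). By role, the authors' deposited table calls 7 of 14 HSP70 and HSP110 genes higher and 2 lower, both chaperonin genes higher, and none of the 3 small heat shock genes with an adjusted p.

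Decreases in the explants were small. The 5 lower members in the authors' deposited table were Hspa5 (-0.12 ± 0.02, adjusted p = 4.8e-06), Dnajc10, an ER disulfide reductase (-0.20 ± 0.05, adjusted p = 2.2e-04), Hspa14 (-0.17 ± 0.05, adjusted p = 0.010), Dnajc9 (-0.11 ± 0.04, adjusted p = 0.0167) and Hspbp1 (-0.18 ± 0.06, adjusted p = 0.0223). Hspb1, the member with the largest change in NSPCs, had -0.55 ± 0.24 in the authors' deposited table and did not pass (adjusted p = 0.0862), and Hspb8, at a mean of 10.6 normalized counts, had no adjusted p there. Dnajc6 (0.08 ± 0.04, adjusted p = 0.195) and Hspa12a (0.09 ± 0.05, adjusted p = 0.187) did not pass in the authors' deposited table either. Of the partner genes, the authors' deposited table calls 12 higher and 5 lower among 53 with an adjusted p (10.5% and 9.75% of all genes).

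Set beside the NSPC cultures, 7 members were higher with crotonate in the explants of the authors' deposited table and lower with crotonate in NSPCs (11.1% of the 63 members in both, against 1.95% of 12926 genes). These were Hsph1, Hsp90aa1, Hspa8, Hspe1, Hspd1, Dnaja1 and Dnajb6, and the NSPC calls of 3 of them ended under some alternatives. Those of Hspa8 and Hspe1 ended as given before, and that of Dnajb6 (-0.11 ± 0.04, limma adjusted p = 0.0478) ended without any 1 of control libraries 1, 2 and 3, crotonate libraries 1, 2 and 3 and MS-275 libraries 1 and 2 (0.0557 to 0.136), with replicate numbers as blocks (0.0694), under quantile normalization (0.125), without the mean-variance trend (0.0817) and without a filter on low values (0.0649). Hspa2, Hspa13 and Dnajc28 were higher in both (Hspa13 in NSPCs by 0.18 ± 0.05, limma adjusted p = 0.00498, but 0.230 after median-of-ratios scaling), and Dnajc9 and Hspbp1 were lower in both. These were 4.76% and 3.17% of the members, against 3.66% and 3.20% of genes. No member was higher in NSPCs and lower in the explants, as 2.48% of genes were. The tables were normalized separately and the strain, tissue and culture differ, so the difference itself was not tested. The plot of both sets of fold changes shows Hspa1b and Hspa1a far to the right in the explants and near the threshold in NSPCs.

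**Figure D3:**
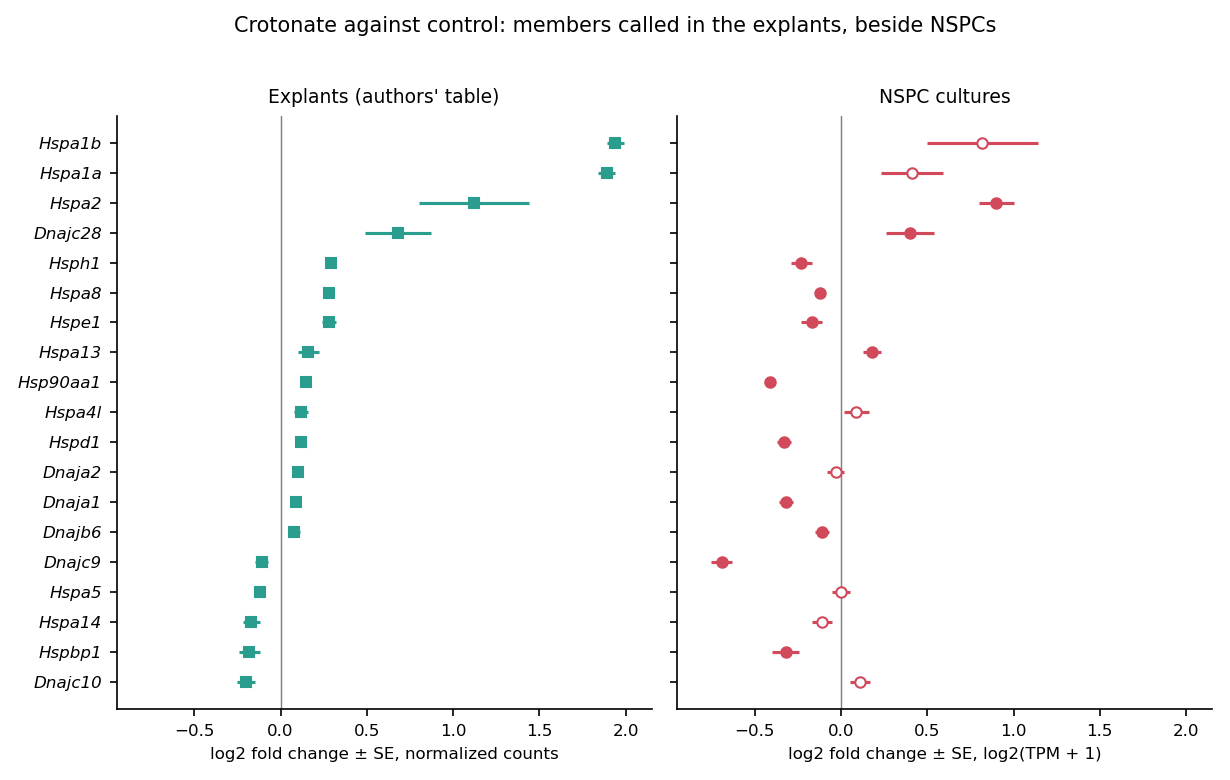
Log2 fold change of crotonate against control with its standard error for the 19 members called in the explants, left as given in the authors' deposited table (3 crotonate and 3 control libraries) and right in NSPC cultures (limma on log2(TPM + 1), 4 crotonate and 4 control libraries, open where the adjusted p was 0.05 or more). Hspa1b and Hspa1a stand at 1.94 and 1.89 in the explants, and 7 of the members right of 0 in the explants are filled points left of 0 in NSPCs.

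Promoters of the members higher in the explants are shown for their heat shock elements, again in capitals and from RefSeq (GRCm38.p6). The windows are chr17:34959189-34959488, minus strand for Hspa1b, chr5:149636266-149636565, minus strand for the first of 2 starts of Hsph1, and chr1:55087898-55088197, plus strand for Hspe1.
Hspa1b: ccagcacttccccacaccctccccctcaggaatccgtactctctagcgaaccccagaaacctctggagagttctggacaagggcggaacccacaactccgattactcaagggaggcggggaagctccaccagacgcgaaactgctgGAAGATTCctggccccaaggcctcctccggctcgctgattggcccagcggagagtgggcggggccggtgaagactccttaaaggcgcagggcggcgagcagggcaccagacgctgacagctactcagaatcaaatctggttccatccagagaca
Hsph1: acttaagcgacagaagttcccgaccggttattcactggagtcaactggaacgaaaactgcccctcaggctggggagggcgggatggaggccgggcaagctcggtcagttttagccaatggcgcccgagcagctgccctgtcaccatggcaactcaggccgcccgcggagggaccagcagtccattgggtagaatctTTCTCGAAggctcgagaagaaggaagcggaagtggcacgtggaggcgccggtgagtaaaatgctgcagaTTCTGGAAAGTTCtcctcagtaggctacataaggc
Hspe1: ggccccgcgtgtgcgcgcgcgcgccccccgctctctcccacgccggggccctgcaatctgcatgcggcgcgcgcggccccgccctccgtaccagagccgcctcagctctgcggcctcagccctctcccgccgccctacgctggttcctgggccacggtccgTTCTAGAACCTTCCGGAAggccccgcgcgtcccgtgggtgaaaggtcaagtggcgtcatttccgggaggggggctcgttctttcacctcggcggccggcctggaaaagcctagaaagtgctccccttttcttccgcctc
Hspa1b holds 1 element at -104, and the Hspa1a window is 98.7% identical to it and holds the same element. Hspe1 holds a run of overlapping elements that begin at -89, -84 and -79. Its start lies 216 bp from that of Hspd1 on the other strand, so both genes share this run. Hsph1 holds elements at -54, 15 and 20. In all, GAANNTTC was found in 14 of the 60 members with a promoter record (23.3%) and in 9.04% of 27025 genes, and TTCNNGAA in 6 (10.0%) and 9.60%. The 3-unit form, GAANNTTCNNGAA or TTCNNGAANNTTC, was found in 4 members (Dnajb6, Hspd1, Hspe1 and Hsph1; 6.67%) and in 0.662% of genes. An 8-base element of either kind was held by 7 of 11 members called higher in the explants, by 1 of 5 called lower and by 5 of 36 that did not pass in the authors' deposited table. The share was 26.7% of the 60 members and 17% of all genes. The 7 include the near-identical Hspa1a and Hspa1b windows and the run shared by Hspd1 and Hspe1, so they are not 7 independent elements. In NSPCs it was held by 4 of 12 members higher with crotonate, 5 of 13 lower and 5 of 28 that did not pass. With MS-275 these were 6 of 18, 6 of 19 and 2 of 16. Hspa8 and Hsp90aa1 are among the 15 members without an entry in the promoter table used.

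Compared with the cultures grown from it, the forebrain itself held some members at quite different levels. Forebrain had 1 library, so no test was made, and a member was counted where it lay outside the 4 control NSPC libraries by at least 2-fold on log2(TPM + 1). Of the 65 members at 1 TPM or more in forebrain or in the control mean, 6 were higher in forebrain (9.23%, against 24.8% of 15817 genes) and 6 were lower (9.23%, against 10.6%). Hspa12a was at 24.6 TPM in forebrain and 1.57 ± 0.325 TPM in control NSPCs, and Dnajc6 was at 14.8 TPM in forebrain and 0.761 ± 0.0955 TPM in control NSPCs (SD, n = 4), log2 differences of 3.32 and 3.16. Both genes also lay above the controls in all 8 treated NSPC libraries, as did the other higher members Hspa12b and Dnajb3, but Dnajb6, a suppressor of protein aggregation at 246 TPM in forebrain and 112 ± 4.60 TPM in control NSPCs, did not. Dnajc28 was the sixth, at 6.52 TPM in forebrain and 2.18 ± 0.607 TPM in control NSPCs. Its MS-275 libraries lay above the controls, and its crotonate libraries overlapped them.

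Lower in forebrain were Hspb8 (1.11 TPM in forebrain and 11.4 ± 1.10 TPM in control NSPCs), Hspa2 (2.3 and 9.60 ± 1.62 TPM), Hspb6 (7.01 and 16.6 ± 1.86 TPM), Dnajc3 (13.3 and 29.2 ± 1.46 TPM) and the mitochondrial chaperones Hspd1 (280 and 667 ± 33.9 TPM) and Hspa9 (152 and 351 ± 10.2 TPM). Of these members, Hspb8 and Hspa2 lay above the controls, away from the forebrain level, in every treated NSPC library. Hspd1 and Hspa9 lay below the controls in every treated library, and Hspb6 and Dnajc3 overlapped them with crotonate. The cytosolic HSP90 genes lay close, with Hsp90ab1 at 1725 TPM in forebrain and 1628 ± 17.9 TPM in control NSPCs, and Hsp90aa1 at 596 TPM in forebrain and 617 ± 9.72 TPM in control NSPCs. Cell makeup differed with this comparison: the 10 neuronal genes summed to 3047 TPM in forebrain and 320 to 341 TPM in control NSPCs, the 5 erythroid genes to 9174 TPM in forebrain and at most 0.214 TPM in control NSPCs, and the 12 NSPC genes to 2949 TPM in forebrain and 9842 to 10371 TPM in control NSPCs. Tissue, culture and these cell types cannot be told apart here. In the plot of forebrain against control levels most members lie near the diagonal, with Hspa12a and Dnajc6 far above and Hspb8 far below it.

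**Figure D4:**
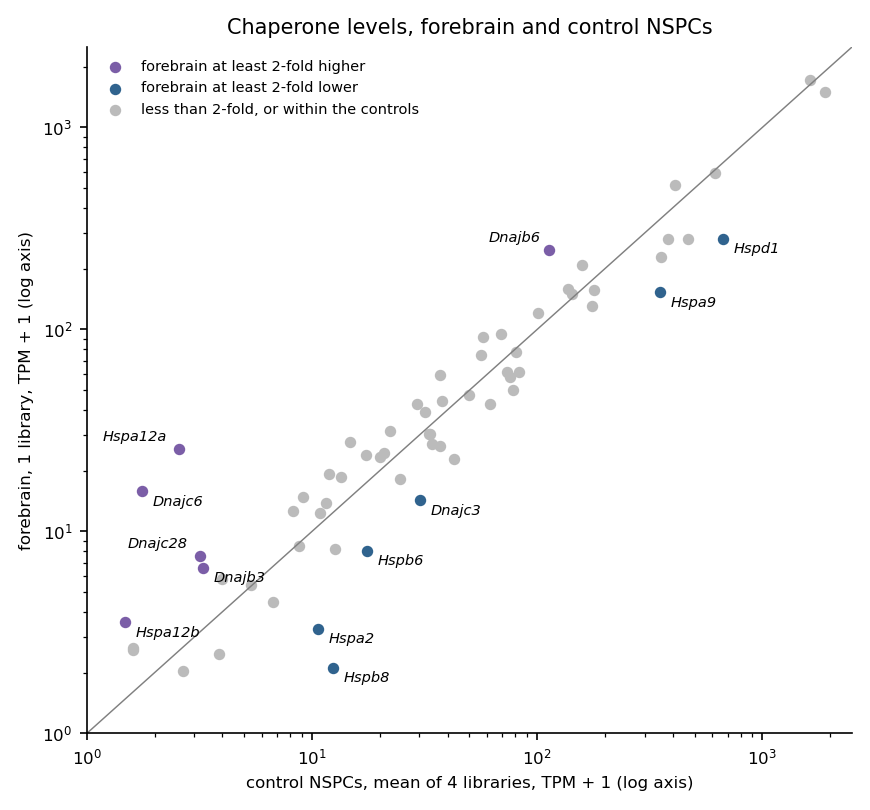
Level of each of the 65 members at 1 TPM or more in the 1 forebrain library or in the control mean, in forebrain (vertical axis) against the mean of the 4 control NSPC libraries (horizontal axis), both as TPM + 1 on log axes, with the members past 2-fold named. Hspa12a and Dnajc6 lie furthest above the diagonal (24.6 and 14.8 TPM in forebrain) and Hspb8 furthest below it (1.11 TPM).

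Peaks of histone acylation lay at the starts of most members that were expressed. A peak was counted within 1 kb of a start in the promoter table (or of either gene end for members without an entry), in the authors' lists, each of 1 library, and presence in a list depends on its length. In forebrain 61 of the 66 tested members had an H3K9ac peak (92.4%, against 84.9% of 13773 tested genes with a position) and 56 an H3K9cr peak (84.8%, against 74.7%). In NSPCs a Kcr peak was listed for 50 members in crotonate (75.8%, against 69.8%), 11 in MS-275 (16.7%, against 18.1%) and 45 in control cells (68.2%, against 60.2%). A Kac peak was listed for 43 members in crotonate (65.2%, against 65.1%), 15 in MS-275 (22.7%, against 19.8%) and 53 in control cells (80.3%, against 68.3%). The MS-275 lists held 5845 Kcr and 7555 Kac peaks, against 17669 Kcr and 23427 Kac peaks in the control lists, so the low MS-275 counts go with short lists. None of the 9 untested members had a peak in any list. No test was made, since each list rests on 1 library.

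The crotonate and control lists differed at some members. A Kcr peak was in the crotonate list and not in the control list for 10 members (15.2%, against 16.0% of tested genes), of which Hspb8, Dnajc6, Dnajc12 and Hspa12b were higher in RNA with crotonate (4 of 10, against 52.9% of the 2206 genes in that state) and Dnajc2 and Hspbp1 lower (2 of 10, against 7.98%). It was in the control list and not in the crotonate list for 5 (7.58%, against 6.36%). A Kac peak was in the crotonate list alone of the 2 for 3 members (4.55%, against 8.64%), Hspb8, Dnajc6 and Dnajc21, and in the control list alone for 13 (19.7%, against 11.8%). Of those 13, 6 were lower in RNA with crotonate (Dnajb1, Dnajc5, Dnajc8, Dnajc9, Hspbp1 and Hsph1; 46.2%, against 22.8% of the 1629 genes in that state) and none was higher (24.2% of those genes). Hspb8 had both marks in the crotonate lists alone: its Kcr peak lay over the start at chr5:116422367-116422984 and its Kac peak just inside the gene at chr5:116422411-116422728. With the largest change in RNA, Hspb1 had no peak within 1 kb of its start in any of the 8 lists, like Dnajc18 alone among the other tested members. Hspa1b had a Kcr peak in the crotonate list alone (chr17:34959438-34959697) and a Kac peak in the control list alone (chr17:34959429-34959605). Both peaks reach into the promoter window that is 98.7% identical to that of Hspa1a, which had no peak in the NSPC lists. The placement of ChIP reads between these copies is therefore uncertain. With MS-275 no member had a peak at these starts that the control list lacked, and 34 members for Kcr (51.5%, against 45.0%) and 38 for Kac (57.6%, against 50.5%) had one in the control list alone.

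Dnajc6 shows where in a gene the peaks lay. The promoter table holds 2 of its starts, on the plus strand of chromosome 4 and 42618 bp apart, and they are shown because the cultures and the tissue had peaks at different ones. The annotated gene begins 11328 bp before the upper of them, at 101496648, for which the table has no sequence. No heat shock or ER stress element was found in either, so no letter is in capitals. The windows (RefSeq, GRCm38.p6) are chr4:101507726-101508025, plus strand, and chr4:101550344-101550643, plus strand.
Dnajc6 upper start: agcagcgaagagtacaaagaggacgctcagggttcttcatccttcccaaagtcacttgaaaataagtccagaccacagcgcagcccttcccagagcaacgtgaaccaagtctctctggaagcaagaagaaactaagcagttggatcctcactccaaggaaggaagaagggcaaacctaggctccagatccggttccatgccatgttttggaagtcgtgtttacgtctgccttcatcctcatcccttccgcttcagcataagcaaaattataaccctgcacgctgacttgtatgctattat
Dnajc6 lower start: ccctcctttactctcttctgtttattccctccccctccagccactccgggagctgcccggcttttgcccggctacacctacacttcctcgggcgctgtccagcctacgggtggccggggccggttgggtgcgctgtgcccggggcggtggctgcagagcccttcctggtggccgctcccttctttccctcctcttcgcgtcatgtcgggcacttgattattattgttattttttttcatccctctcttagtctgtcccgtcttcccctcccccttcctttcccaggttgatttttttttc
In crotonate cells peaks lay just downstream of the upper start, with Kac at chr4:101507993-101508184 and Kcr at chr4:101507998-101508226. Forebrain peaks lay at the lower start, with H3K9ac at chr4:101549911-101551143 (fold enrichment 13.1, the authors' value) and H3K9cr at chr4:101550343-101551053 (fold enrichment 5.76, the authors' value). Neither of these starts had a peak in the MS-275 or control lists. The beginning of the gene had peaks in 4 lists, with Kac at chr4:101496723-101497135 and Kcr at chr4:101496713-101497147 in crotonate cells, Kac at chr4:101496854-101497096 in MS-275 cells and H3K9ac at chr4:101496300-101496914 in forebrain (fold enrichment 4.61, the authors' value), and none in the control lists. Of the other members, Dnajc1, Dnajc25 and Hspa4l also begin over 1 kb from any start in the promoter table, and no list had a peak there for a member that lacked one in it at the starts used. The RNA table gives 1 value per gene, so which start the RNA came from was not measured.

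**Figure D5:**
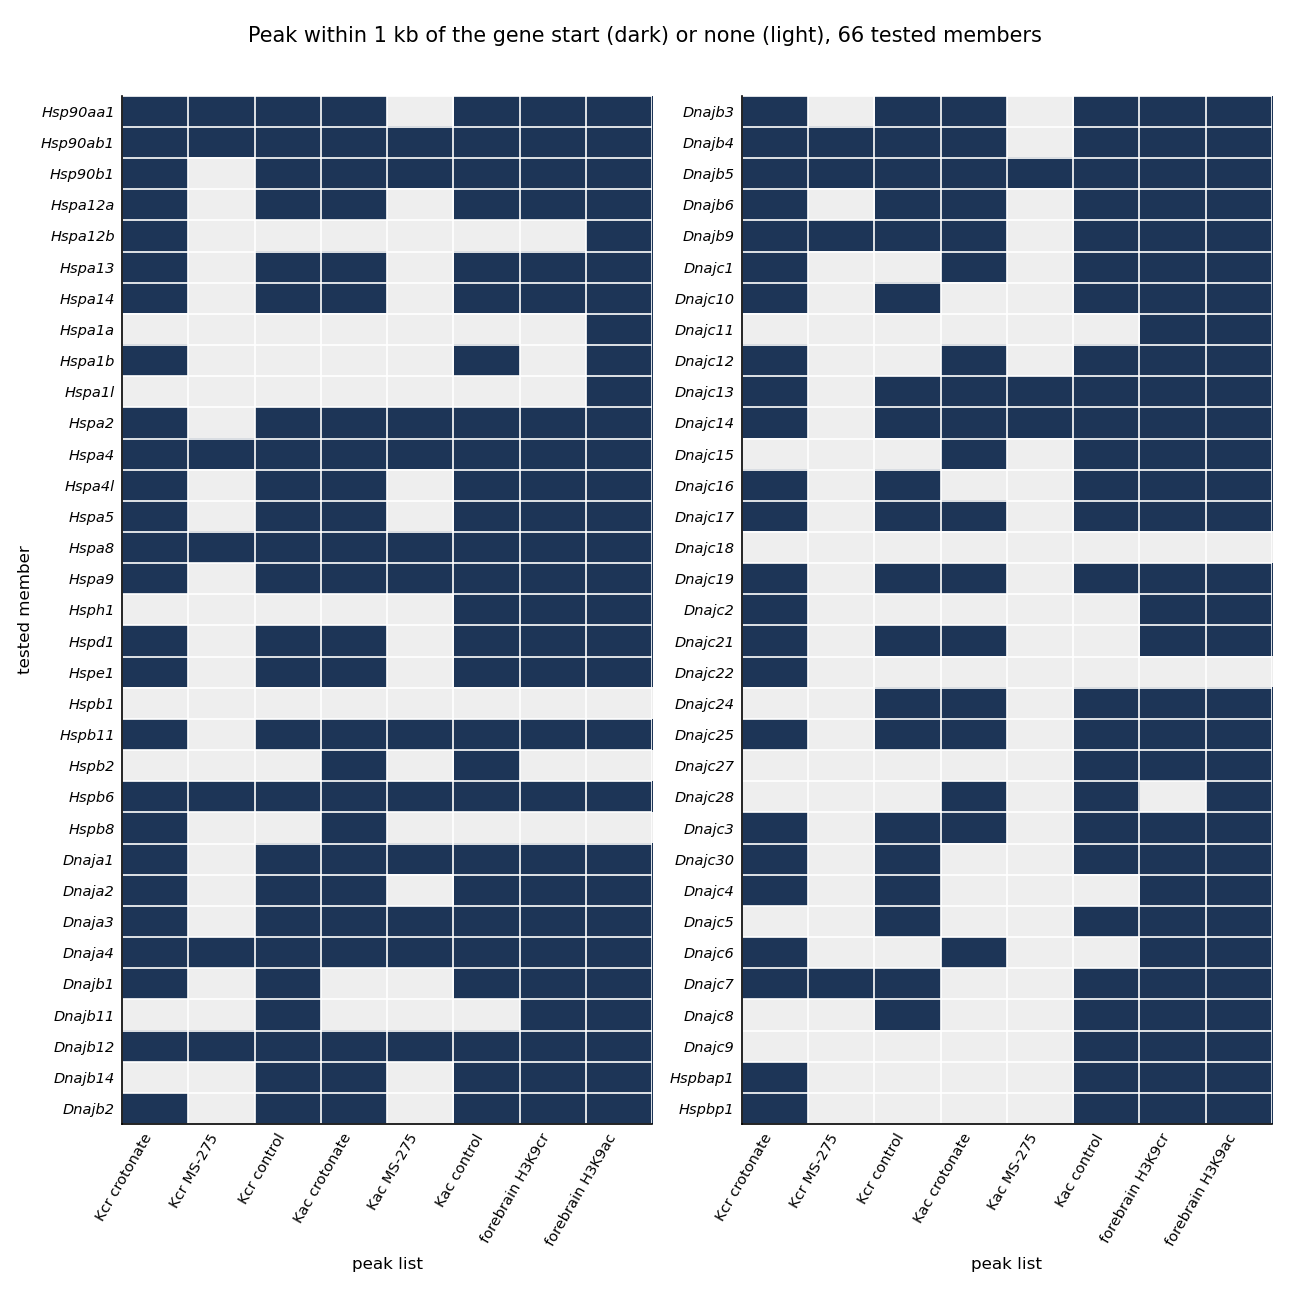
Presence (dark) or absence (light) of a peak within 1 kb of a start for the 66 tested members (one line each, by role) in the 8 deposited peak lists, each of 1 ChIP library. The MS-275 columns are mostly light (11 and 15 members), the forebrain columns mostly dark (56 and 61), and Hspb1 and Dnajc18 have no dark cell.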

How the data were processed

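RNA levels were measured by RNA-seq in 12 NSPC libraries and 1 forebrain library and deposited by the authors as TPM (Salmon 1.0.0, per the submitters' processing notes), without read counts, so depth is unknown. The authors' deposited explant table gives signal as mean normalized counts, a log2 fold change, its standard error and test statistic (score columns) and a p-value with its adjusted form, and DESeq2 1.26.0 is named in the submitters' processing notes. The deposited forebrain peak lists hold the peak caller's score, fold enrichment ratio and -log10 p and q, and the deposited NSPC lists hold positions (Bowtie2 2.3.5.1, MACS2 2.2.5 and GRCm38 per the submitters' processing notes; the settings are not given in the sources used here). DNA methylation data were not used here.

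Libraries were grouped by their labels. Genes at 1 TPM or more in at least 4 of 12 NSPC libraries went into limma (version 3.58.1, in R version 4.3.3), run on log2(TPM + 1) in 1 fit of the 3 groups with a mean-variance trend and Benjamini-Hochberg adjustment over all 14857 genes, two-sided, at 0.05. The series text calls the libraries biological replicates; p-values measure the spread between these libraries. Same-numbered libraries deviated together (12 correlations of deviations from the group means, 0.119 to 0.241, against -0.197 to 0.0993 for 36 others), so the numbers were taken to pair the libraries, and a fit with the number as a block was an alternative. The explant table was used as deposited, with an adjusted p of 0.05; the smallest mean count with one was 16.2. Peaks were matched to gene starts with bedtools 2.31.1 (within 1 kb, at least 1 bp), using RefSeq starts for 60 members and the table's gene ends for 15; 92.7% of tested genes had a position. Motifs were read in RefSeq promoter windows (GRCm38.p6). Figures were drawn with matplotlib 3.10.9 in Python 3.11.15, tables were handled with pandas 2.3.3, and the scripts were tested on simulated data.

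The members, the partner list and the marker lists were chosen with earlier results of these data known. Named with values were, by rule, the 3 members of each role highest in controls. Added were up to 6 per direction and NSPC comparison by adjusted p and by fold change, and up to 5 per direction in the explants. The rule also took up to 6 per direction for forebrain, and 4 partner genes per direction, of which a selection is printed. Hsf1, Hsf2 and Hspa13 were chosen after their values were seen. The values of 1 member are not reported here. Alternatives were a pseudocount of 0.1, other filters, scaling by median of ratios, quantile normalization, no trend, the block, each library left out, and other windows, overlaps and thresholds for peaks and explants.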

Additional observations from a re-analysis of the deposited data

Results flagged for a closer look

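In 6 of 123 groups of 4 libraries (41 members by 3 groups), 1 library lay far from the other 3; chance alone gives about 1 in 20 such groups. Hspa1b was at 10.3 TPM in crotonate library 1, against 4.12 to 4.64 TPM in the other crotonate libraries. Hspe1 was at 346 TPM in that library, against 299 to 306 TPM in the other 3. Hspa14 was at 82.7 TPM in crotonate library 2, against 73.5 to 73.8 TPM in the others. Hsph1 was at 53.5 TPM in MS-275 library 4, against 58.1 to 58.6 TPM in the others. Dnajc17 was at 28.9 TPM in control library 4, against 37.8 to 39.2 TPM in the others, and Hsp90ab1 was at 1602 TPM in control library 3, against 1634 to 1641 TPM in the others.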

How the results depend on the processing

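The tally covers the 83 results that passed in the limma fit described above for the 41 members named by the rule. Many of these members were named for a small adjusted p or a large change. Results of the other tested members that passed are not in the tally. Several of those ended under an alternative, among them Dnajb9, Dnajc5, Hspa13 and Hspa1l with crotonate. Of 1570 alternative values, 1506 kept their direction and their side of the threshold, 63 lost the call and 1 changed sign. Under all alternatives run, 68 of the 83 results kept their call. Results that had not passed were left out of the tally, and some of them passed under an alternative. Examples are Hspa1b, Hspb6 and Dnajc3 with crotonate and Dnaja2 with both treatments. The 1 reversal was Dnajc28 with crotonate under quantile normalization (-0.05, limma adjusted p = 0.805). Among members, quantile normalization left 8 higher with crotonate (20.8% of all genes), and median-of-ratios scaling gave 31 lower (26.9% of all genes, against 15.9% without it). Among the partner genes, median-of-ratios scaling gave 5 higher and 32 lower with crotonate (24.5% and 26.9% of all genes). Quantile normalization gave 13 partner genes higher with MS-275 than with crotonate (22.4% of all genes). At an adjusted p of 0.01 the authors' deposited table gave 2 lower members in the explants. The cause was not tested. With 1 library left out, members higher and lower numbered 11 to 16 and 14 to 20 with crotonate, 19 to 21 and 25 to 26 with MS-275, and 9 to 14 and 18 to 22 for MS-275 against crotonate. For the partner genes these were 7 to 10 and 16 to 20, 13 to 13 and 25 to 28, and 6 to 9 and 21 to 23. No share of all genes is given for the 0.01 threshold, the fits with 1 library left out or the block below. Those counts therefore show only how calls shift within these lists.

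With replicate numbers as a block, 14 members were higher and 19 lower with crotonate, 21 and 27 with MS-275, and 13 and 20 for MS-275 against crotonate. With crotonate, the block added Hspa1b, Dnajc3 and Hspb6 and ended the calls of Dnajb9, Dnajb6 and Hspa1l; with MS-275 it added Dnaja2; against crotonate it added Hspbap1 and Dnajc15 and ended Dnajc24 and Dnajc27. It changed no other member's call. No paired analysis was possible for the explants because only summary values are given there, nor for forebrain and peaks because each has 1 library. Read depth is unknown, so the precision of low TPM values cannot be given.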
